A study of Mus musculus with 6 samples.

Results

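The liver carboxylesterases are described here in mouse livers, as the 10 genes Ces1b, Ces1c, Ces1d, Ces1e, Ces1f, Ces1g, Ces2a, Ces2e, Ces3a and Ces3b. The members were chosen by gene family, as the rows of the deposited expression table that carry these symbols. All 10 were found among the 16638 genes of the table. RNA was sequenced from 3 livers of obese mice injected with HA (hippuric acid, which is benzoic acid joined to glycine) and from 3 livers labelled PBS (phosphate-buffered saline) and titled as controls. HA went into the peritoneum at 60 mg/kg, with 2 injections a week over 5 weeks, per the series design text. The sources used here do not give the PBS schedule, the strain, sex, age and genotype of the mice or the way obesity was induced, and do not spell out that the PBS mice were of the same obese model. They also do not say that each liver is from a different mouse, so p-values rest on a spread between samples that may be technical.

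Carboxylesterases are serine hydrolases that cleave ester and amide bonds in drugs and in neutral lipids, and in hepatocytes most of them sit in the lumen of the endoplasmic reticulum. In the mouse the family has grown by gene duplication into clusters of neighbouring copies, so a drug ester or a lipid can meet several closely related enzymes. In liver some members are known for releasing fatty acids from stored triacylglycerol, which then feed the assembly of very-low-density lipoprotein (VLDL). Others are known mainly from prodrug cleavage.

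The copies resemble each other, which bears on every value below, because fragments from identical stretches can be given to either copy or dropped, depending on the counter. The sources used here do not say how the authors' counter treated such fragments. The longest coding transcripts of the 10 members in GENCODE M21 (build GRCm38) were compared for this reason. Ces3a and Ces3b were the closest pair, with 95.3% identity over aligned coding bases and a longest identical stretch of 194 bases. Ces1b and Ces1c followed, with 91.1% identity and a stretch of 118 bases, and Ces2a and Ces2e had 83.3% identity and a stretch of 73 bases. The other Ces1 pairs had lower identity, such as 81.5% for Ces1d and Ces1g and 74.5% for Ces1b and Ces1f. Of all words of 100 bases in a transcript, 9.09% of those of Ces3a were also found in Ces3b and 7.68% of those of Ces3b in Ces3a. Ces2a shared 10.7% of its words of 100 bases with another annotated gene, Gm7208, which was not analysed here. For Ces1b and Ces1c the shares were 1.29% and 1.39%, and for Ces1d, Ces1e, Ces1f, Ces1g and Ces2e they were 0%. At a word length of 50 bases the shares ran from 1.28% for Ces1d to 30.9% for Ces3a. At that length Ces3a and Ces3b were the least separable, and Ces1d, Ces1f and Ces1g the most. At 150 bases Ces2a shared the most, at 4.03%, against 2.37% for Ces3a and 2.0% for Ces3b. The longest stretches common to the 2 closest pairs, from the coding strand of the GENCODE M21 transcripts, are shown because no fragment that lies inside them can be assigned to 1 copy.
Ces3a and Ces3b: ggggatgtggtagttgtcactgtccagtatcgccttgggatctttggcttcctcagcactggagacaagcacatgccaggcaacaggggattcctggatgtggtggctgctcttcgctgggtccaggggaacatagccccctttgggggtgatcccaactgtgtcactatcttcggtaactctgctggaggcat
Ces1b and Ces1c: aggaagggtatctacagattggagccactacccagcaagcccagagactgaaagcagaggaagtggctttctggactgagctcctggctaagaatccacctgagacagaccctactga

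Values are FPKM (fragment counts divided by gene length and library depth), as deposited. Library totals recovered from the steps of the values were 37921444 to 39349601 fragments in HA livers and 38209590 to 39908844 in PBS livers. A member had at least 1839 and at most 122876 fragments in a library, which puts its counting error at 0.285 to 2.33% of the value. The coefficient of variation between samples of a group was 6.03 to 62.6% for HA and 5.13 to 32.4% for PBS. Alb, the gene for serum albumin, took 12.6 to 14.7% of the fragments of HA libraries and 7.54 to 9.84% of those of PBS libraries (limma adjusted p = 0.0864 for its FPKM), and FPKM divides by the total that includes them. PBS replicate 1 held marker transcripts of adrenal gland and skeletal muscle, at a summed 62.2 and 52.7 FPKM over the marker lists. In the other 5 libraries the adrenal sum was at most 0.391 FPKM and the muscle sum at most 1.39 FPKM. HA replicate 2 stood apart from HA replicate 1 on the second principal component, which held 25.9% of the variance.

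HA livers were set against PBS livers to ask which transcripts differ with HA. Among the carboxylesterases, Ces1e, Ces1f, Ces1g and Ces3a were lower in each HA liver than in any PBS liver, at 44.8 to 66.1% of the PBS mean, while Ces1c, the most abundant, was at 99.6%. None of the 10 passed the threshold in limma on log2(FPKM + 1), after Benjamini-Hochberg adjustment over the 10745 genes tested. The count past an adjusted p of 0.05 was 0 in either direction, against 0.512% of all genes tested that were called lower and 0.289% called higher. With voom on recovered fragments the count was also 0. At an unadjusted limma p under 0.05 it was 5, each with a lower value in HA. That unadjusted threshold was passed by 13.1% of all genes tested with a lower value in HA and by 4.61% with a higher one. Groups did not overlap for 4 of the 10 members (40.0%), each lower in HA, against 19.2% of all genes tested that were lower in HA without overlap, 6.47% that were higher and 25.6% in either direction. All 10 log2 differences were negative, as were 62.8% of those of all genes tested. Their median was -0.55, against -0.06 over all genes tested, and it was -0.29 without HA replicate 2. In bulk tissue, fewer cells of a type and less RNA per cell cannot be told apart.

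**Figure D1:**
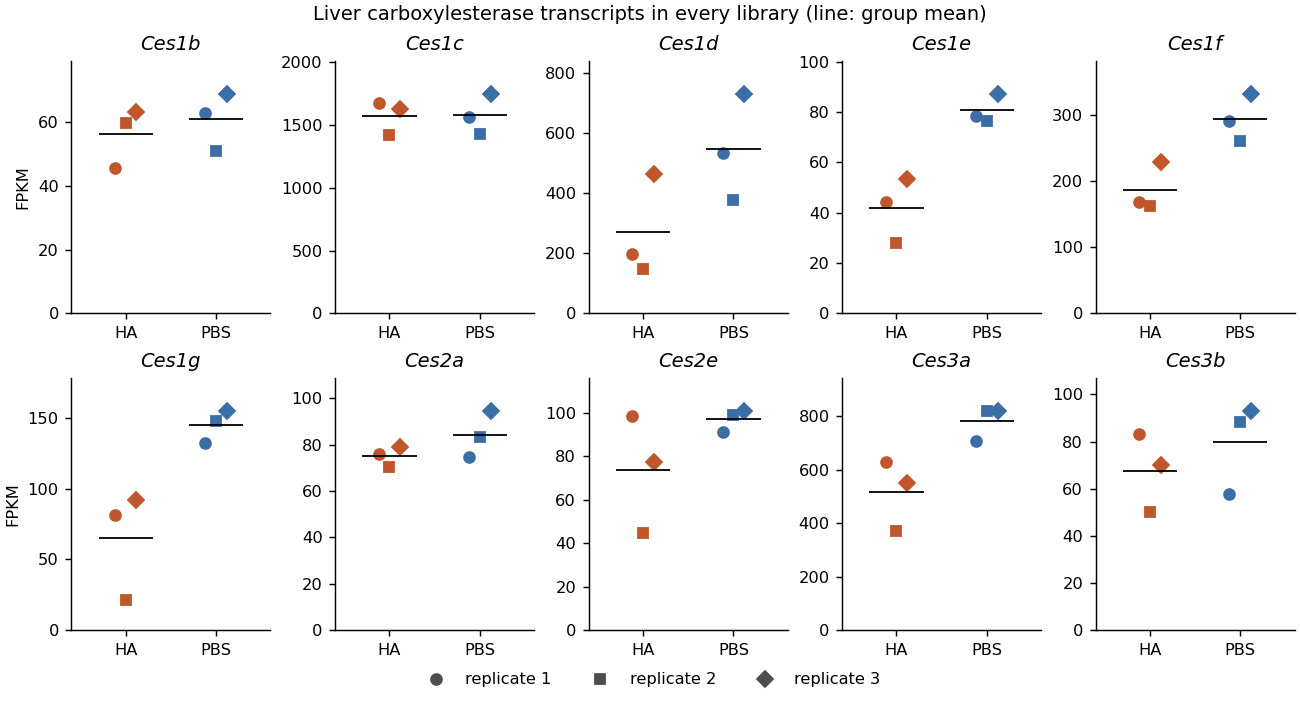
FPKM (vertical axes, each starting at 0) of the 10 carboxylesterases in 3 HA and 3 PBS livers, with a marker shape for each replicate number and a line at each group mean. In Ces1e, Ces1f, Ces1g and Ces3a the HA points lie below the PBS points, in Ces1c the group means are 1574 and 1580 FPKM, and HA replicate 2 is the lowest HA point in 9 of 10 panels.

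Ces1c encodes the esterase that mouse liver secretes into plasma, and it was the most abundant member. It was at 1676, 1419 and 1628 FPKM in HA livers, against 1562, 1431 and 1748 FPKM in PBS livers. Both groups spanned much the same range and overlapped throughout. The log2 difference was -0.005 (SE 0.13), with a 95% interval from -0.30 to 0.29 (limma adjusted p = 0.986), and its sign turned under other scalings of the libraries. Ces1b, its nearest copy, was far lower on the same per-length scale. It was at 45.7, 59.9 and 63.4 FPKM in HA livers, against 63.0, 50.9 and 68.9 FPKM in PBS livers. Its groups overlapped, with the lowest of the 6 values in HA replicate 1 and the highest in PBS replicate 3. The log2 difference of Ces1b was -0.11 (SE 0.16), with a 95% interval from -0.50 to 0.27 (limma adjusted p = 0.747). Summed, Ces1b and Ces1c reached 1479 to 1721 FPKM in HA livers and 1482 to 1817 FPKM in PBS livers. The sum lessens the effect of a split of fragments between them. It does not remove that effect, since the recovered lengths differ (2008 bases for Ces1b and 1840 for Ces1c), and it restores no dropped fragments.

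Ces1d encodes triacylglycerol hydrolase, the luminal lipase known in mice for mobilising stored triacylglycerol for VLDL. It was at 199, 149 and 465 FPKM in HA livers, against 534, 376 and 730 FPKM in PBS livers. HA replicate 3 lay above PBS replicate 2, so the groups overlapped, and the other 2 HA livers lay below every PBS liver. The log2 difference was -1.13 (SE 0.42), with a 95% interval from -2.12 to -0.14 (limma adjusted p = 0.229). On the FPKM scale the HA mean was 2.02-fold lower, and 3.14-fold lower without HA replicate 3. Ces1d varied most among the members in both groups, with a coefficient of variation of 62.6% in HA livers and 32.4% in PBS livers.

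Ces1f, known as TGH-2 and related to triacylglycerol hydrolase, was less variable. It was at 168, 162 and 229 FPKM in HA livers, against 291, 260 and 331 FPKM in PBS livers. Every HA value lay below every PBS value, with a gap between 229 and 260 FPKM. The log2 difference was -0.66 (SE 0.16), with a 95% interval from -1.05 to -0.28 (limma adjusted p = 0.109). Without 1 library at a time the adjusted p of Ces1f did not reach the threshold either.

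Ces1e encodes egasyn, the esterase that binds beta-glucuronidase and holds it in the endoplasmic reticulum. It was at 44.4, 27.8 and 53.2 FPKM in HA livers, against 78.3, 76.3 and 87.1 FPKM in PBS livers. The groups were well apart and the PBS livers close together, with coefficients of variation of 30.8% in HA livers and 7.17% in PBS livers. Its log2 difference was -0.98 (SE 0.22), with a 95% interval from -1.49 to -0.46 (limma adjusted p = 0.0906). That was the smallest p-value of the 10, rank 320 among all genes tested.

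Ces1g encodes esterase-x, whose loss in mice is known to bring obesity, fatty liver and raised blood lipids. It was at 81.6, 21.03 and 92.2 FPKM in HA livers, against 132, 148 and 155 FPKM in PBS livers. HA replicate 2 was far below the other 2 HA livers, which in turn lay below all PBS livers. The log2 difference was the most negative of the 10, at -1.40 (SE 0.50, limma adjusted p = 0.215), with a 95% interval from -2.57 to -0.23. Without HA replicate 2 it was -0.73, and the adjusted p of 0.0501 came closest to the threshold among all members and alternatives. On the FPKM scale the HA mean of Ces1g was 2.23-fold lower with all libraries and 1.67-fold lower without HA replicate 2.

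**Figure D2:**
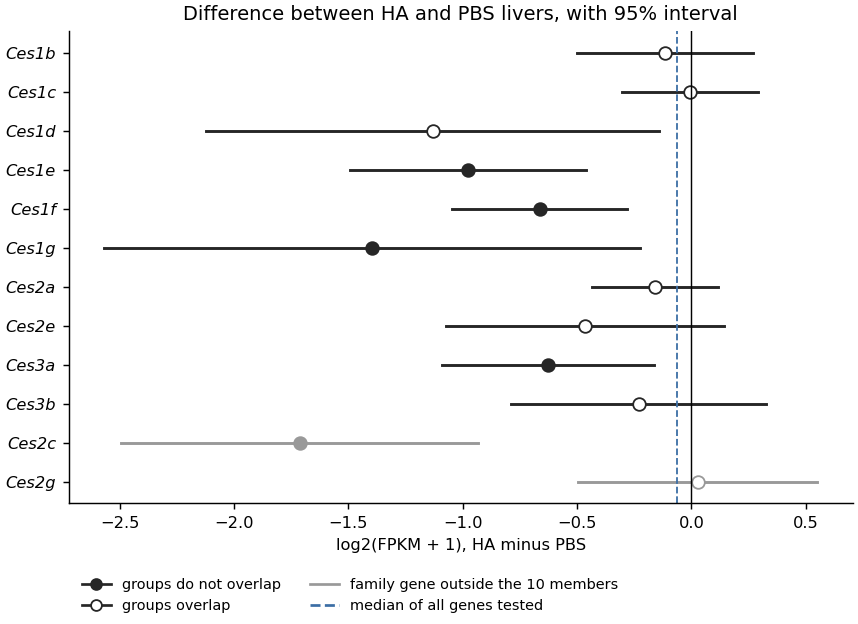
Differences in log2(FPKM + 1), HA minus PBS (horizontal axis), with 95% limma intervals (lines) for the 10 members (black) and for Ces2c and Ces2g (grey); filled points mark groups that did not overlap. Intervals of Ces1d, Ces1e, Ces1f, Ces1g, Ces3a and Ces2c lie below 0 before adjustment, while the interval of Ces1c runs from -0.30 to 0.29 around the dashed median of all genes at -0.06.

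The Ces2 members are mouse relatives of human CES2, the esterase known for activating the prodrug irinotecan. Ces2a was at 76.1, 70.2 and 79.1 FPKM in HA livers, against 74.7, 83.5 and 94.7 FPKM in PBS livers. These groups overlapped, and Ces2a was the least variable member among HA livers, with a coefficient of variation of 6.03%. Its log2 difference was -0.16 (SE 0.12), with a 95% interval from -0.43 to 0.12 (limma adjusted p = 0.507), and it was -0.24 without PBS replicate 1 and -0.07 without PBS replicate 3. Ces2e was at 98.6, 44.9 and 77.2 FPKM in HA livers, against 91.4, 98.9 and 101 FPKM in PBS livers. HA replicate 1 lay within the PBS range, and HA replicate 2 was far below every other liver. The log2 difference of Ces2e was -0.46 (SE 0.26, limma adjusted p = 0.390), with -0.15 once HA replicate 2 was left out and -0.71 once HA replicate 1 was.

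Ces3a, formerly esterase-31, and its neighbour Ces3b are the pair of members whose fragments are hardest to tell apart from each other. Ces3a was the member of second-highest level, at 628, 372 and 551 FPKM in HA livers, against 706, 819 and 821 FPKM in PBS livers. The groups did not overlap, with 628 FPKM in HA replicate 1 and 706 FPKM in PBS replicate 1 the nearest values. The log2 difference of Ces3a was -0.63 (SE 0.20), with a 95% interval from -1.09 to -0.16 (limma adjusted p = 0.170), and it was -0.41 without HA replicate 2. Ces3b was at 83.0, 50.05 and 70.0 FPKM in HA livers, against 57.6, 88.2 and 93.1 FPKM in PBS livers. Here the groups overlapped, and the lowest PBS value lay below 2 of the HA values. The log2 difference of Ces3b was -0.23 (SE 0.24), with a 95% interval from -0.79 to 0.33 (limma adjusted p = 0.642). It was -0.03 without HA replicate 2, -0.39 without HA replicate 1, -0.44 without PBS replicate 1, -0.14 without PBS replicate 2 and -0.10 without PBS replicate 3. Summed over both copies, the Ces3 level was 422 to 711 FPKM in HA livers and 764 to 914 FPKM in PBS livers, without overlap.

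Of the 11 further names looked up for the family, 5 were in the table, and 2 of these passed the filter of a mean of at least 0.5 FPKM. Ces2c, known as an acylcarnitine hydrolase, was at 4.24, 0.837 and 1.89 FPKM in HA livers, against 8.72, 8.83 and 9.23 FPKM in PBS livers. The PBS livers were nearly equal, with a coefficient of variation of 3.01%, and each HA liver lay below them. Its log2 difference was -1.71 (SE 0.33), larger in size than that of any of the 10 members, and did not pass (limma adjusted p = 0.0700). Without HA replicate 1 Ces2c passed, at a log2 difference of -2.11 and an adjusted p of 0.0158, and the HA mean was 6.55-fold lower against 3.84-fold with all libraries. Its adjusted p lay between 0.0158 and 0.215 over the 15 alternatives. Ces2c was counted on 63 fragments in HA replicate 2, which gives a counting error of 12.6% there. Ces2g was at 18.9, 9.42 and 14.2 FPKM in HA livers, against 13.0, 14.9 and 12.4 FPKM in PBS livers, and its HA values spread around the PBS values (log2 difference 0.03, SE 0.22, limma adjusted p = 0.959). Ces1a, Ces2h and Ces4a were at or below 0.206 FPKM in HA livers and 0.227 FPKM in PBS livers and were not tested. In these 2 tested genes limma made 0 calls, voom made 0, and 1 gene had an unadjusted p under 0.05.

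The make-up of the family was read as shares of its summed level, which were not tested. Over the 15 family genes in the table, the summed level was 2386 to 3325 FPKM in HA livers and 3456 to 4251 FPKM in PBS livers. Ces1c made up 53.6, 59.5 and 49.0% of that sum in HA livers, against 43.2, 41.4 and 41.1% in PBS livers. Each HA share was above each PBS share. Ces1e took 1.17 to 1.599% in HA livers and 2.05 to 2.21% in PBS livers, and Ces1g took 0.881 to 2.77% in HA livers and 3.64 to 4.29% in PBS livers. Ces3a, with 15.6 to 20.1% in HA livers and 19.3 to 23.7% in PBS livers, overlapped as a share. The whole Ces1 sum overlapped, at 1838 to 2531 FPKM in HA livers and 2343 to 3120 FPKM in PBS livers. Without Ces1c, the Ces1 sum was 420 to 903 FPKM in HA livers and 911 to 1372 FPKM in PBS livers. The Ces2 sum overlapped, at 125 to 198 FPKM in HA livers and 188 to 217 FPKM in PBS livers. So did the sum of Ces1d, Ces1e and Ces1f, at 339 to 748 and 712 to 1148 FPKM in HA and PBS livers. The family held 0.467 to 0.659% of all fragments in HA livers and 0.696 to 0.849% in PBS livers.

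**Figure D3:**
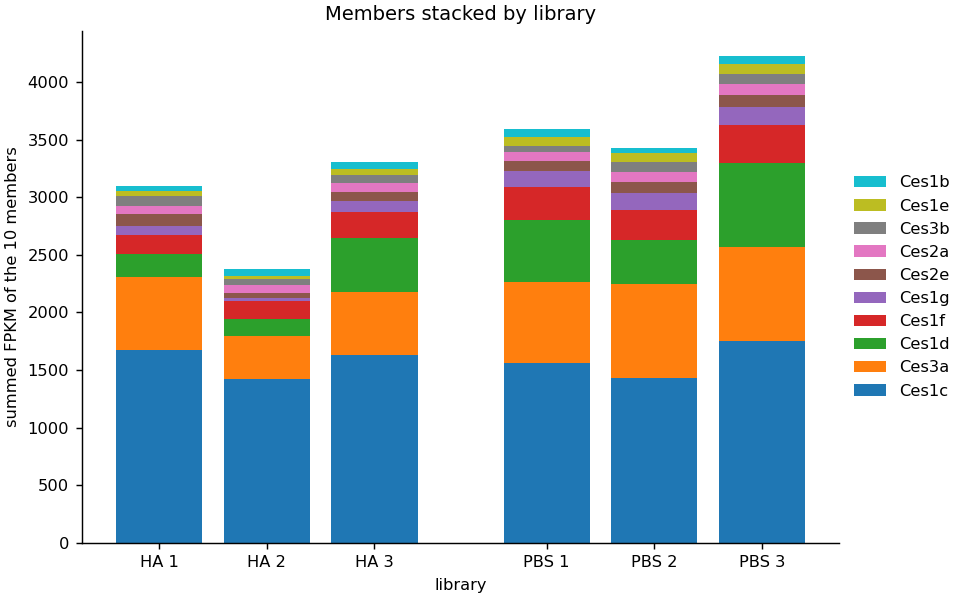
Summed FPKM of the 10 members (vertical axis, from 0) in each of the 3 HA and 3 PBS libraries, with each member as a coloured segment. The Ces1c segment is 1419 to 1676 FPKM in HA livers and 1431 to 1748 FPKM in PBS livers, and the segments above it are together shorter in the HA bars.

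Setting each other member against Ces1c within a library removes the scaling of the libraries. For 9 such ratios the groups were compared with a two-sided exact permutation test of 3 against 3, which cannot go below p = 0.1. Ces1g was at 4.87, 1.48 and 5.66% of Ces1c in HA livers, against 8.46, 10.3 and 8.86% in PBS livers. Ces1e was at 2.65, 1.96 and 3.27% of Ces1c in HA livers, against 5.01, 5.33 and 4.99% in PBS livers. Both were lower in every HA liver than in any PBS liver, and so were Ces1f, with 10.04 to 14.1% in HA livers against 18.2 to 19.0% in PBS livers, and Ces3a, with 26.2 to 37.5% in HA livers against 45.2 to 57.2% in PBS livers. These 4 reached the smallest exact p of 0.1, or 0.225 after Benjamini-Hochberg adjustment over the 9 ratios. They are the same 4 members that did not overlap in FPKM, and Ces1c itself differed little, so the ratios add no separate evidence. The share of all genes tested whose ratio to Ces1c did not overlap was not computed. The log2 ratio differed by -1.42 for Ces1g, -0.99 for Ces1e, -0.66 for Ces1f and -0.62 for Ces3a, and by -0.11 for Ces1b (exact p = 0.8). The other 4 ratios overlapped, with exact p from 0.2 for Ces1d to 0.4 for Ces3b.

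Single livers stood out across the members. HA replicate 2 was the lowest of the HA livers in 9 of 10 members, Ces1b being the exception, and the lowest of all 6 livers in the same 9. Over all genes tested it was the lowest HA liver in 29.9% and the lowest of all 6 in 19.7%. PBS replicate 3 was the highest of all 6 livers in each of the 10 members, against 10.7% of all genes tested. Variation was larger among HA livers than among PBS livers for 8 of 10 members, and for 59.6% of all genes tested. Across the 6 livers, which share the group difference, Pearson's r of log2 levels was 0.96 between Ces1d and Ces1f, between Ces1e and Ces1g and between Ces1g and Ces3a, as a description. For Ces1b, r ran from -0.26 with Ces3b to 0.60 with Ces1d, and was 0.22 with Ces1c, its nearest copy. For Ces1c it ran up to 0.57, with Ces2e.

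**Figure D4:**
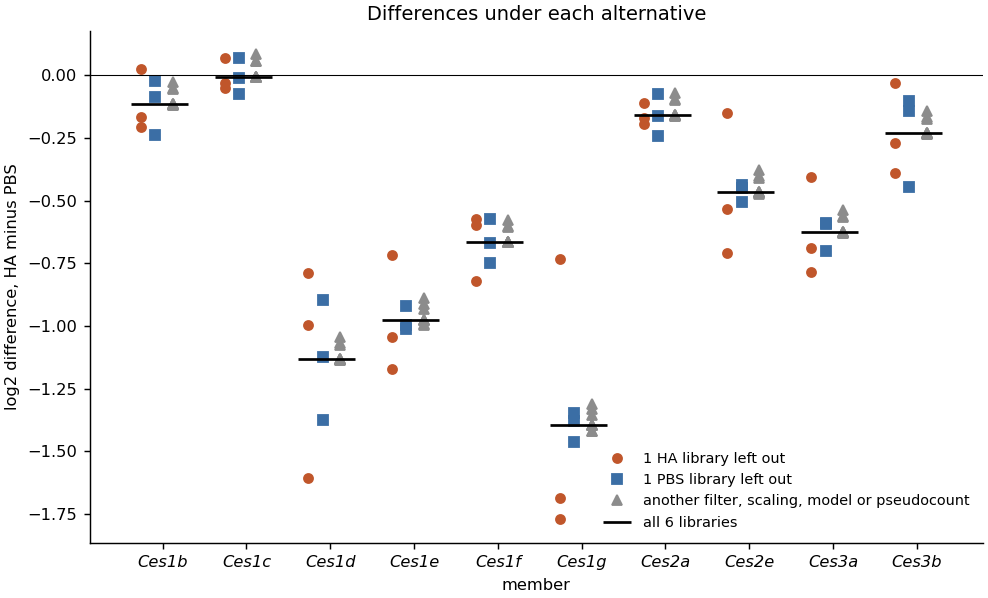
The log2 difference of each member, HA minus PBS (vertical axis), with all 6 libraries (black line), with 1 HA library left out (circles), with 1 PBS library left out (squares) and under another filter, scaling, model or pseudocount (triangles). Leaving out 1 HA library moves Ces1g between -1.77 and -0.73 and Ces1d between -1.61 and -0.79, while Ces1c stays between -0.07 and 0.08 under all of these.

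Among 9059 named genes outside the family with a mean of at least 1 FPKM, those most like Ces1e over the 6 livers were Cyp2j5 (r = 0.993), Aldh1a1 (r = 0.992) and Psmb1 (r = 0.992). Aldh1a1, which oxidises retinal, was at 355, 152 and 402 FPKM in HA livers, against 742, 749 and 772 FPKM in PBS livers. Like Ces1e, it was lowest in HA replicate 2 and close to even among PBS livers. Those most like Ces1c were Tcea1 (r = 0.970), Dus4l (r = 0.968) and Pfdn6 (r = 0.949). With 6 points shared by all genes, such values only describe the pattern.

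Upstream sequences were held for 7 of the 10 members in the RefSeq table of build GRCm38.p6. The deposited values were made on GRCm39, so these coordinates belong to another build than the data. The 250 bases before the gene start are shown for the 4 Ces1 members with an entry, since 2 of them differed between the groups without overlap (Ces1e and Ces1g) and 2 overlapped (Ces1b and Ces1c). All lie on the minus strand and are written 5′ to 3′, at chr8:93229620-93229869 for Ces1e, chr8:93337210-93337459 for Ces1g, chr8:93079941-93080190 for Ces1b and chr8:93131284-93131533 for Ces1c. Capitals mark TTATGTAA, the longest word that all 4 share on the same strand, found by searching for shared words and so chosen from these sequences.
Ces1e: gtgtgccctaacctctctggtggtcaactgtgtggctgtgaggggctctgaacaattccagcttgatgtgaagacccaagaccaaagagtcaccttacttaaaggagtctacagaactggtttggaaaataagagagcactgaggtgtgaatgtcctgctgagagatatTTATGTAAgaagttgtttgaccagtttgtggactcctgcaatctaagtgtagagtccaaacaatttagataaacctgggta
Ces1g: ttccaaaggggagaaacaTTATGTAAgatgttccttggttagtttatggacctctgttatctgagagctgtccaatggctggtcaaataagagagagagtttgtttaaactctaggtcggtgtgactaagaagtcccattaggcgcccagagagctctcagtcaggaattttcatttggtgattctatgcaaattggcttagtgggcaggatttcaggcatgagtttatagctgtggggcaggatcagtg
Ces1b: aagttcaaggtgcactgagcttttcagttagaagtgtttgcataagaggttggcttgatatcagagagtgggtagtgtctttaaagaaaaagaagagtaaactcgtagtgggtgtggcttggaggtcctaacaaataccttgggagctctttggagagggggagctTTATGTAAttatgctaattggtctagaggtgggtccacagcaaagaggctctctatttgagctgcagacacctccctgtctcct
Ces1c: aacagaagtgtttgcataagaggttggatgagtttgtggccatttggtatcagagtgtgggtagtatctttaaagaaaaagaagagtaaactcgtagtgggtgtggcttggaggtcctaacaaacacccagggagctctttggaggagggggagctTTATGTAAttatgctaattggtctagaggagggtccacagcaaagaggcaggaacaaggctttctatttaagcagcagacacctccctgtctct

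The word begins 81 bases before the start in Ces1e, 84 in Ces1b, 94 in Ces1c and 232 in Ces1g, so it stands both in members whose groups overlapped and in members whose groups did not. It was present on the same strand in 118 (0.437%) of 27025 upstream windows of 250 bases, 1 per gene, and on either strand in 233 (0.862%). Ces1b and Ces1c had 94.6% identity over aligned upstream bases, with an identical run of 58 bases, while Ces1e and Ces1g had 57.3% and a run of 11 bases. Members of different subfamilies had from 49.6% (Ces1e and Ces3b) to 65.4% (Ces2e and Ces3b), a range that includes the 57.3%. TTATGTAA is a form of the D box, the element known to bind the PAR-bZIP factors Dbp, Tef and Hlf. Dbp, read after its values were seen, was at 22.2, 37.5 and 30.2 FPKM in HA livers, against 31.0, 25.3 and 26.1 FPKM in PBS livers, and its groups overlapped (limma adjusted p = 0.819). Tef and Hlf overlapped as well (limma adjusted p = 0.906 and 0.407). A match describes letters in a window and no binding.

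Other genes of the same roles were counted as lists. Of 21 tested esterases and lipid hydrolases outside the family, 2 fell and 0 rose, while voom called 2 on recovered fragments and 0 on median-ratio depths. Over all genes tested, limma called 0.512% lower and 0.289% higher. The list had a median log2 difference of -0.31, against -0.06 over all genes tested. At an unadjusted p under 0.05 there were 10, each lower in HA, against 13.1% lower and 4.61% higher over all genes tested. Groups did not overlap for 10, each lower in HA, against 19.2% lower and 6.47% higher over all genes tested. Mgll, which splits monoacylglycerol, fell to 26.8 ± 3.22 FPKM in HA livers, against 46.5 ± 1.88 FPKM in PBS livers (SD, n = 3 each, limma adjusted p = 0.0411). Lipc, the hepatic lipase, fell to 42.6 ± 2.37 FPKM in HA livers, against 67.3 ± 3.68 FPKM in PBS livers (n = 3 each, limma adjusted p = 0.0424). Abhd6, another monoacylglycerol lipase, was at 1.76 ± 0.584 and 3.91 ± 1.07 FPKM in HA and PBS livers and did not pass (limma adjusted p = 0.109). The calls of Mgll and Lipc held in 4 and 5 of 15 alternatives, and both were lost with median centring, with rescaling outside Alb, with voom on median-ratio depths, with no filter and on leaving out any 1 PBS library, HA replicate 1 or HA replicate 3. That of Mgll was also lost without HA replicate 2.

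VLDL assembly, the process that Ces1d is known to feed, had 0 of 14 genes past the threshold in limma and in voom. At an unadjusted p under 0.05 it had 5, of which 4 were lower in HA, against 13.1% lower and 4.61% higher over all genes tested. Mia2, a cargo receptor factor of the endoplasmic reticulum, was at 49.4 ± 7.43 FPKM in HA livers and 70.9 ± 3.42 FPKM in PBS livers (n = 3 each, limma adjusted p = 0.109). Tm6sf2, which helps load lipid onto VLDL, was at 22.9 ± 1.92 FPKM in HA livers and 16.8 ± 1.71 FPKM in PBS livers, higher in each HA liver than in any PBS liver (limma adjusted p = 0.124). Dgat2, which makes triacylglycerol, was at 171 ± 39.0 and 234 ± 22.8 FPKM in HA and PBS livers, with overlap (limma adjusted p = 0.218). The list median was -0.22, against -0.06 over all genes tested. For the proteins that fold glycoproteins or return them to the endoplasmic reticulum, 0 of 11 genes passed in limma and in voom, and 0 had an unadjusted p under 0.05. Hspa5, the main chaperone there, was at 334, 140 and 218 FPKM in HA livers, against 313, 319 and 294 FPKM in PBS livers, so HA replicate 2 was again the lowest. Mlec and Kdelr1, the other named genes of that list, had limma adjusted p of 0.428 and 0.490, and its median was -0.15.

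Of 21 tested transcription factors reported to act on carboxylesterase genes, 0 passed in limma or voom and 4 had an unadjusted p under 0.05, each lower in HA. Over all genes tested, 13.1% passed that unadjusted threshold with a lower value in HA and 4.61% with a higher one. Ppara, the fatty acid receptor, was at 19.8, 24.2 and 33.4 FPKM in HA livers, against 46.9, 34.9 and 41.3 FPKM in PBS livers (limma adjusted p = 0.151). The 3 HA values lay below the PBS values by a narrow gap. Cebpa, a hepatocyte bZIP factor, was at 127 ± 15.0 and 160 ± 2.34 FPKM in HA and PBS livers (n = 3 each, limma adjusted p = 0.195). Nr1h3, the oxysterol receptor LXR alpha, was at 31.5 ± 1.58 and 37.7 ± 2.30 FPKM in HA and PBS livers (n = 3 each, limma adjusted p = 0.240). Nr1i3, the xenobiotic receptor CAR, named here after its values were seen, was at 48.4, 65.2 and 143 FPKM in HA livers, against 123, 105 and 126 FPKM in PBS livers. HA replicate 3 was above all PBS livers and the other 2 HA livers were below them. The list median was -0.18, against -0.06 over all genes tested.

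Of 22 tested target genes of CAR and PXR, 2 fell and 0 rose, and voom called 2 on recovered fragments and 1 on median-ratio depths. Over all genes tested, limma called 0.512% lower and 0.289% higher. The median log2 difference of the list was -0.72, against -0.06 over all genes tested. At an unadjusted p under 0.05 there were 14, of which 13 were lower in HA, against 13.1% lower and 4.61% higher over all genes tested. The other gene of the 14 was Cyp3a11, a cytochrome P450 induced through PXR and named here after its values were seen. Cyp3a11 was at 1077, 1529 and 902 FPKM in HA livers, against 903, 785 and 703 FPKM in PBS livers, with a log2 difference of 0.53 (SE 0.20, limma adjusted p = 0.246). Its groups overlapped by a narrow margin, with HA replicate 3 just under PBS replicate 1. Ugt2b1, a glucuronosyltransferase, fell to 75.2 ± 1.81 FPKM in HA livers, against 146 ± 9.60 FPKM in PBS livers (n = 3 each, limma adjusted p = 0.0161), and its call held in 11 of 15 alternatives. Gstt3, a glutathione transferase, fell to 24.1 ± 2.20 FPKM in HA livers, against 41.9 ± 4.37 FPKM in PBS livers (n = 3 each, limma adjusted p = 0.0438), a call held in 5 of 15 alternatives. Calls of both genes were lost on leaving out any 1 PBS library, and that of Gstt3 also without HA replicate 1 or 3, with median centring, with rescaling outside Alb, with no filter and in voom on median-ratio depths. Abcc3, an export pump for conjugates, was at 34.4 ± 12.9 and 84.2 ± 12.4 FPKM in HA and PBS livers and did not pass (limma adjusted p = 0.0674).

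Markers of cell types and zones were read beside the carboxylesterases. The 10 hepatocyte markers were all in the table and summed to 80812 to 95696 FPKM in HA livers and 53501 to 64641 FPKM in PBS livers, mostly Alb. Pericentral markers summed to 4851 to 7687 FPKM in HA livers and 11471 to 11708 FPKM in PBS livers, mostly Cyp2e1. All 12 pericentral markers had a negative log2 difference, with a median of -0.63, against -0.06 over all genes tested. At an unadjusted p under 0.05 there were 9, each lower in HA, against 13.1% lower over all genes tested. Groups did not overlap for 9, each lower in HA, against 19.2% lower over all genes tested. Oat was the 1 of the 12 that fell (limma adjusted p = 0.0425), against 0.512% of all genes tested called lower. Its call held in 6 of 15 alternatives and was lost with no filter, with rescaling outside Alb and on leaving out any 1 library. Periportal markers summed to 3856 to 6061 FPKM in HA livers and 3509 to 4399 FPKM in PBS livers, with a median of 0.37 over 11 genes. The pericentral sum was thus lower in each HA liver than in any PBS liver, as were Ces1e, Ces1f, Ces1g and Ces3a, and its part in those differences was not tested.

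Adipocyte markers summed to 2.72 to 12.6 FPKM in HA livers and 6.72 to 26.5 FPKM in PBS livers, with Plin1 at 0 in 2 HA livers and 1 PBS liver. The highest sum, in PBS replicate 2, was nearly all Cfd, at 25.2 FPKM. Markers of red blood cells summed to 700 to 1320 FPKM in HA livers and 227 to 335 FPKM in PBS livers. Of these, 3 of 5 tested rose, namely Hba-a1, Hba-a2 and Hbb-bt, against 0.289% of all genes tested called higher. Their calls held in 10 of 15 alternatives and were lost on leaving out any 1 PBS library or HA replicate 3 and with no filter. Kupffer cell markers summed to 116 to 216 and 99.9 to 120 FPKM in HA and PBS livers, with overlap. Of the 10 Kupffer cell markers, 0 had a negative log2 difference, and their median was 0.48, against -0.06 over all genes tested. Sums for sinusoidal endothelium, at 40.7 to 65.3 and 47.5 to 67.8 FPKM, and for stellate cells, at 75.2 to 152 and 82.5 to 132 FPKM, overlapped between HA and PBS livers. Cholangiocyte markers summed to 24.8 to 29.1 FPKM in HA livers and 13.3 to 23.3 FPKM in PBS livers. The intestinal list had 2 of 7 names in the table and summed to 84.0 to 115 and 153 to 191 FPKM in HA and PBS livers, nearly all Fabp2, which liver also expresses. Kidney markers reached at most 0.663 FPKM in HA livers and 0.0688 FPKM in PBS livers, with 3 of 6 names in the table. Of the 13 marker lists, 11 had 0 genes past the threshold in limma or voom, and among their 65 tested genes 14 had an unadjusted p under 0.05. Higher in HA were 4 hepatocyte, 4 periportal, 3 Kupffer cell and 1 cholangiocyte marker. Lower in HA were 1 adipocyte and 1 intestinal marker. Of all genes tested, 13.1% had such a p with a lower value in HA and 4.61% with a higher one. The part of these cell types in the carboxylesterase values was not tested. Without PBS replicate 1, the library with adrenal and muscle transcripts, the median log2 difference of the 10 members was -0.59.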

How the data were processed

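The authors deposited 1 table of FPKM values for 16638 genes, with 1 column per liver. The unit was read from the values, since the header names samples only. Reads were trimmed with Trimmomatic and aligned with HISAT2 to GRCm39, per the submitters' processing notes. The sources used here do not give the counter, annotation, gene filter, read length or use of strand, and name 2 library kits without saying which was used. Groups were taken from the sample titles.

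The steps between low values were used to recover how many fragments each library held. For each gene, the smallest length that made all its values whole within 0.0001 was then taken. Such a length was found for all 99828 values, so wholeness was the rule of choice and no separate check. Where the fragment numbers of a gene share a factor, the recovered numbers are too small. Fragments are not independent molecules, so counting errors cover counting only.

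Tests were run with R 4.3.3 and limma 3.58.1, for 10745 genes with a mean of 0.5 FPKM or more, on log2(FPKM + 1), with a variance trend and treatment as the only term. All p-values are two-sided, with Benjamini-Hochberg adjustment over these genes and a threshold of 0.05. Fold changes on this scale understate those of low genes. Ratios to Ces1c were compared with an exact permutation test in scipy 1.17.1.

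The members and the 6 pathway and 13 marker lists were chosen with earlier results of these data known. The genes named were all 10 members, every further family gene in the table, up to 3 genes of each other pathway list by smallest unadjusted p, and the 3 genes most correlated with the most abundant member and with the member of smallest p. Alternatives changed the pseudocount, filter, trend or scaling, added a replicate block, used voom on recovered fragments or left out 1 library at a time. Replicate numbers were not used to pair the samples in the main fit.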

Additional observations from a re-analysis of the deposited data

How the results depend on the processing

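The count of carboxylesterases past the threshold stayed at 0 in all 15 alternatives. Their median log2 difference ran from -0.65 to -0.29, both reached by leaving out 1 HA library. The sign of Ces1c turned to 0.059 with median centring, 0.083 with rescaling to the signal outside Alb, 0.056 with voom on median-ratio depths, 0.068 without HA replicate 2 and 0.070 without PBS replicate 3. Leaving out 1 library at a time gave -0.074 to 0.070 for Ces1c, -0.237 to 0.027 for Ces1b and -0.194 to 0.274 for Ces2g. Ces1b turned without HA replicate 1, and Ces2g turned without HA replicate 1 and, at -0.024, without PBS replicate 3. The cause was not tested. The count of all genes past the threshold was 86 (31 higher and 55 lower with HA). It was 17 with no filter, 57 outside Alb (33 higher, 24 lower), 68 with median centring (36 higher, 32 lower), 47 with voom on median-ratio depths (28 higher, 19 lower) and 7 to 117 with 1 library left out. Without PBS replicate 1, 2 or 3 it was 7, 8 and 11, and without HA replicate 1 or 3 it was 35 and 37, while it was 117 without HA replicate 2. With a replicate block it was 16, no member passed, and Mgll, Lipc, Ugt2b1, Gstt3 and Oat lost their calls. Deviations of same-numbered livers from their group means had r = -0.14, -0.13 and 0.18 over genes for numbers 1, 2 and 3. For livers of unlike numbers r ran from -0.13 to 0.22. With 3 livers per group this cannot exclude a pairing, and none was used in the main fit. The voom settings were chosen after seeing the data. Fits with edgeR and DESeq2 were intended as alternatives and were not run, and voom on the recovered fragments was run in their place. Counting error at this depth was at most 2.33% of a member's value, and 12.6% for Ces2c in HA replicate 2.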
